A study of Mus musculus with 15 samples.

Results

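Genes of mitosis were followed in mouse lung ILC2s (type 2 innate lymphoid cells), lymphocytes that live in the tissue and answer epithelial alarm signals with type 2 cytokines. The set was chosen as 45 gene symbols for the cyclins and kinases of mitosis, the kinetochore, the spindle checkpoint, chromosome condensation, the spindle and cytokinesis, with kinesins left out except the kinetochore motor Cenpe. A gene entered when a feature of the array carried its symbol alone, which held for 43 of the 45, each with 1 feature, among 22180 genes tested in all. Ccnb1 had no feature of its own and Ncapg shared one with Lcorl. All 43 were tested without a filter on dim signal, so no such filter admitted a gene through the group in which it was high. The genes and the further lists were, however, chosen with earlier results of these data known. The counts against all genes tested do not allow for that choice.

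The 15 arrays came from 5 groups of 3 biological replicates. Naive adults were females and males aged 8 weeks. Effector adults, females and males whose age the labels leave out, had received the alarmin IL-33 intranasally for 3 days in a row and gave their cells 1 day later. Neonates were naive, aged 10 days and of unlabelled sex. No group is labelled as dosed without IL-33, so dosing itself cannot be told apart from IL-33. The sources used here do not give the strain, the sort markers or the number of mice per replicate, and where replicates do not come from separate mice the p-values measure only the spread between these samples. Values are log2 array levels. Each is a bulk measurement, in which a larger share of dividing cells cannot be told apart from more RNA per dividing cell.

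A cell that enters mitosis activates the kinase Cdk1 with cyclins A and B, condenses its chromosomes and attaches them to spindle microtubules through kinetochores. A checkpoint holds back the anaphase-promoting complex until attachment is complete, after which cohesion is cut and the cell divides. Most of the transcripts involved accumulate in G2 and M phase and are low in resting lymphocytes. ILC2s of the healthy adult lung divide rarely, and IL-33 is known to make them expand.

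The cells carried ILC2 markers in every condition. Gata3, the lineage's transcription factor, had a mean level of 8.83 in naive adults, 8.74 in neonates and 8.72 in effector adults, and the IL-7 receptor gene Il7r of 11.71, 11.05 and 10.60. Of 13 ILC2 markers tested 4 were higher and 1 lower in effector than in naive adults, against 16.6% and 10.1% of all genes tested (limma, adjusted p under 0.05). Markers of T, B, myeloid, NK, mast, endothelial, epithelial, stromal and erythroid cells were measured by 59 genes, of which 2 were higher and 14 lower in effector than in naive adults (limma, adjusted p under 0.05). These are 3.39% and 23.7% of the markers, against 16.6% and 10.1% of all genes tested, and the median difference was -0.26, against -0.06. Background signal was itself lower in effector adults. Sensory receptor genes, which lymphocytes do not use, had a median level of 3.16 in naive and 2.63 in effector adults. For markers at background level, all genes tested are therefore not a matched comparison. Some of the 59 were high in naive adults, with means of 10.58 for Lat, 10.22 for Cd3g and 9.99 for Ighm, while the rest averaged 8.01 (Cpa3) or less. The part of the 59 markers in the differences of the mitotic genes was not tested. Array medians spanned 4.44 to 4.64, and Pearson correlations between replicate arrays ran from 0.904 to 0.974.

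IL-33 effector cells carried nearly the whole mitotic programme above naive cells. Of 43 genes 42 were higher in effector than in naive adults and 0 lower, against 16.6% and 10.1% of all genes tested (limma, Benjamini-Hochberg adjusted p under 0.05 over all genes). Of the 42 called genes 41 were at least 2-fold higher. Over all 22180 genes tested 1627 were called and at least 2-fold different in either direction. The median difference of the 43 genes was 2.87, against -0.06 over all genes tested. For 41 genes every effector array lay above every naive array, which held for 11.2% of all genes tested. Neonatal cells lay in between. There 38 genes were higher and 1 lower than in naive adults, against 4.5% and 2.68% of all genes tested, with a median of 1.68, against 0.04 over all genes tested. All neonatal arrays lay above all naive arrays for 37 genes and below them for 1, against 6.22% and 3.39% of all genes tested. The comparisons share the naive arrays. The mean level over the 43 genes was 4.61 to 4.88 on the 6 naive arrays, 6.29 to 6.79 on the 3 neonatal arrays and 7.27 to 7.79 on the 6 effector arrays, so that the 3 conditions did not overlap.

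**Figure D1:**
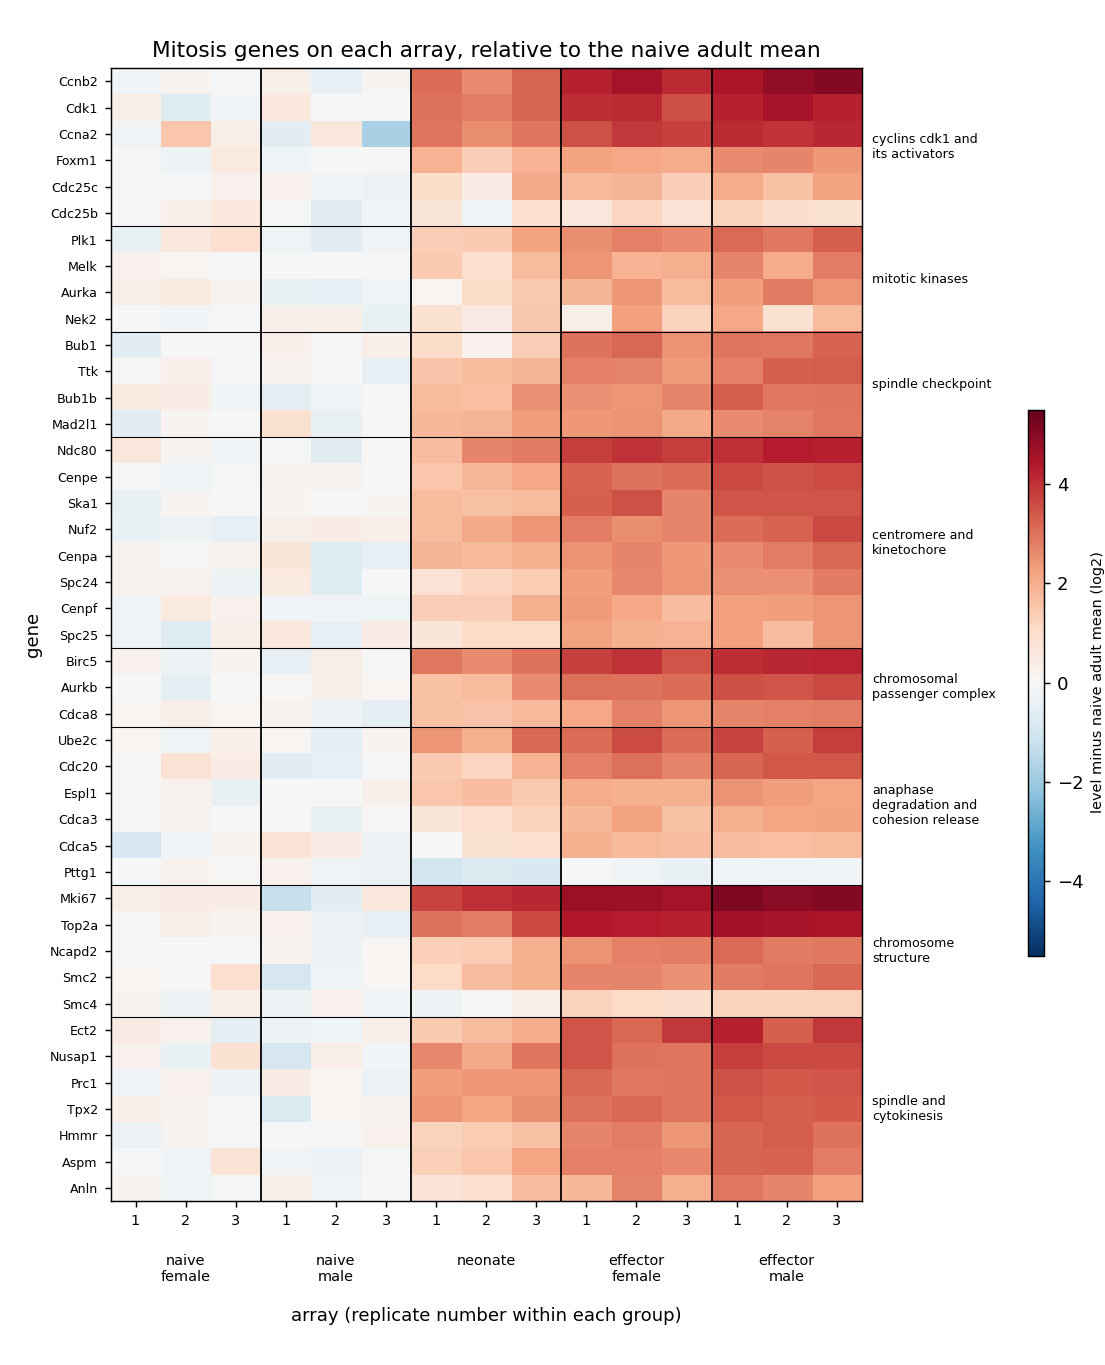
Level of each of the 43 genes (rows, grouped by role) on each of the 15 arrays (columns), as the log2 difference from the mean of the 6 naive adult arrays; red is higher and blue lower. The effector columns are darkest, the neonatal columns intermediate, and Pttg1 is the row without red in either.

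Levels in naive cells bound what these differences can say. Sensory receptor genes, which lymphocytes do not use, gave a range of background signal: in naive adults 95% of 1390 such genes lay at or below 5.46, in neonates at or below 4.89 and in effector adults at or below 4.64. In naive adults 36 of the 43 genes lay at or below that level, in neonates 2 (Bub1 and Cdca5) and in effector adults 0. For the 36 genes the naive value may be background, and the difference is one of array signal that can understate the change of the transcript. The 7 genes above it in naive adults were Plk1, Mad2l1, Spc24, Pttg1, Mki67, Ncapd2 and Smc4. By sex, the level was 5.34 in naive females, with 33 of the 43 genes at or below it. In naive males it was 5.76, with 40 of the 43 at or below it. Plk1, Spc24, Mki67 and Ncapd2 lay within background signal in naive males, and only Mad2l1, Pttg1 and Smc4 lay above it in both sexes.

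The promoters of these genes share a sequence feature that the choice of the genes did not use. Promoters of G2 and M phase genes are known to hold a pair of elements: the cell cycle genes homology region (CHR), with the core TTTGAA, which recruits MuvB complexes together with the transcription factor encoded by the member Foxm1, and the CCAAT box, which binds NF-Y. Promoter sequences of RefSeq on build GRCm38.p6, 250 bases before to 50 bases after a start site, were found for 35 of the 43 genes. TTTGAA or its complement TTCAAA lay in the promoters of 25 of the 35 genes (71.4%, against 20.2% of 27025 genes). CCAAT or its complement ATTGG lay in those of 26 (74.3%, against 41.1%), and both lay in 1 promoter for 22 (62.9%, against 7.97%). The 2 motifs can overlap by a shared base. Matches are letters in a window, not measured binding sites. Ect2 and Prc1 each had 2 overlapping promoters, of which the first was taken for positions. Of 33 CHR matches 25 began within 50 bases of the start site and 17 after it, while 62 of 65 CCAAT matches began before it. Most of the window, 250 of its 300 bases, lies before the start site, and positions were not compared with those in other genes. Placement is therefore not shown to be particular to these genes. The 22 genes with both motifs had a median effector difference of 2.88 (2.01 to 4.87) and the other 13 a median of 2.54 (-0.21 to 4.03), ranges that overlap.

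The 250 bases before the start site are shown 5′ to 3′ for the 4 genes with both motifs that had the largest effector differences among those given array by array, and for Pttg1, which did not rise. Capitals mark CHR and CCAAT matches on either strand.
Mki67, chr7:135716380-135716629, minus strand: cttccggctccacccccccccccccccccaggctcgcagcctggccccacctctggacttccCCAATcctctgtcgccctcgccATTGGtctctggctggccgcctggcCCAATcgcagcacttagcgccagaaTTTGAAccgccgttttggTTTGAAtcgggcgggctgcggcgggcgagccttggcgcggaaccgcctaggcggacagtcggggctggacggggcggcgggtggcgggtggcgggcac
Ccnb2, chr9:70421555-70421804, minus strand: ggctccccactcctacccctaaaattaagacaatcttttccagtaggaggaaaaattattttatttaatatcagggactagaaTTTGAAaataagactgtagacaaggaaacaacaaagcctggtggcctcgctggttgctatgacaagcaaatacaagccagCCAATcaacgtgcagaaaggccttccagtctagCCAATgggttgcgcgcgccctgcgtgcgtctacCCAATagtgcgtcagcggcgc
Top2a, chr11:99024190-99024439, minus strand: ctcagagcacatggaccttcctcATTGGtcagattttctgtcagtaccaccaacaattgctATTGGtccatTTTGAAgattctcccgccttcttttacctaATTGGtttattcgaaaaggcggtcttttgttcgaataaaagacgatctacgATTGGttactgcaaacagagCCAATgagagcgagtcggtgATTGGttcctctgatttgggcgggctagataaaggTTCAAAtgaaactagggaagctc
Cdk1, chr10:69352913-69353162, minus strand: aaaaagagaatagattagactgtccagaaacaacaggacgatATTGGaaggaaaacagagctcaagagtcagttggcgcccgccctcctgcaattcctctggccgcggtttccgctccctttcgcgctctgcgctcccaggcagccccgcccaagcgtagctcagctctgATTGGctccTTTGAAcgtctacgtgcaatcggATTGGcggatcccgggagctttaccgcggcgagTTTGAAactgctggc
Pttg1, chr11:43425982-43426231, minus strand: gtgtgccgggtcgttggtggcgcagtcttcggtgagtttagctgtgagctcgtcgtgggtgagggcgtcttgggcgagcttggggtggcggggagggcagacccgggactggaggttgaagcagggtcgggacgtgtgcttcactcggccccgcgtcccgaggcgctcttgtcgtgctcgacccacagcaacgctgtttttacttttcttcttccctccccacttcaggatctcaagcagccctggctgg
Mki67, Top2a and Cdk1 each show 2 CHR matches, which begin 116 and 98, 179 and 23, and 71 and 15 bases before the start. Ccnb2 has 3 CCAAT matches and a CHR match 167 bases before it, and a further CHR match that begins 5 bases after it and is not shown. Pttg1 shows neither motif. The promoters of Birc5, Nusap1, Nuf2, Mad2l1 and Melk also held neither, and these genes rose in effector adults by 2.30 (Melk) to 3.94 (Birc5).

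**Figure D2:**
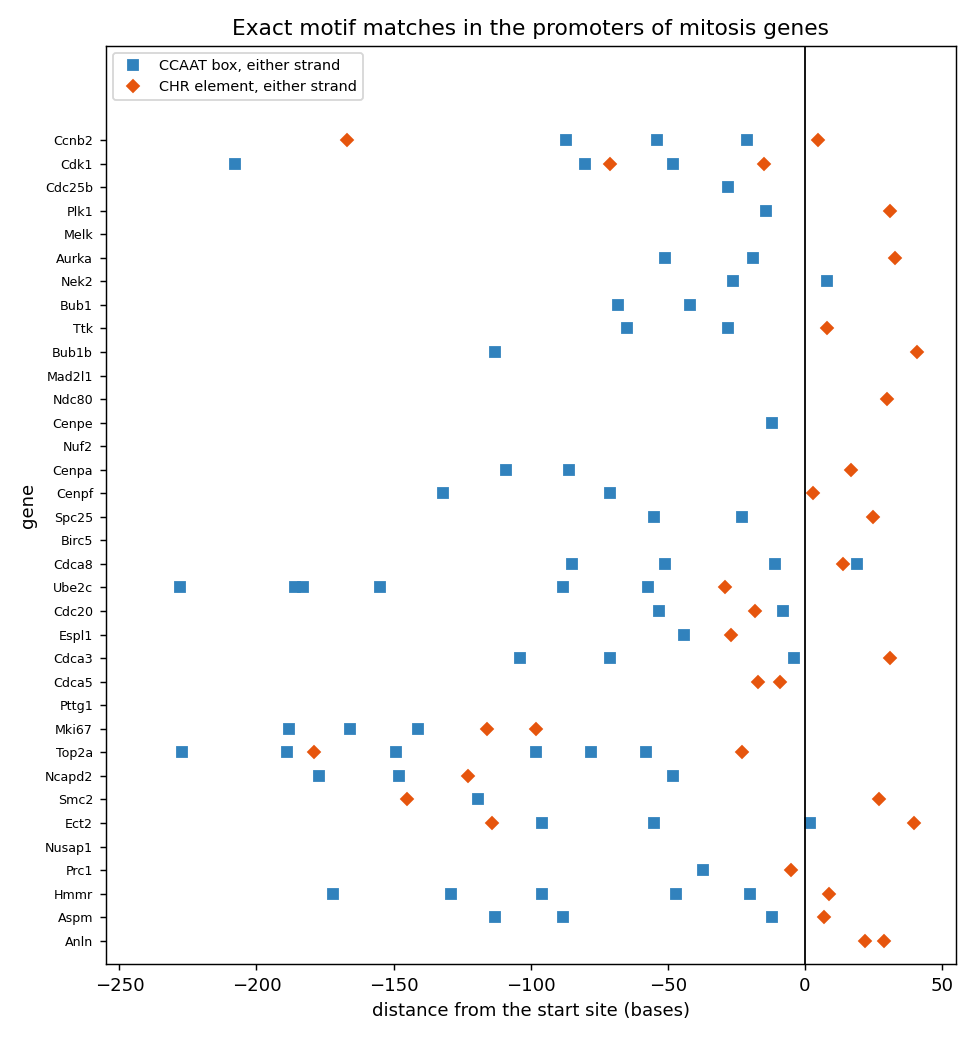
Exact matches to the CCAAT box (squares) and the CHR element (diamonds) on either strand, by distance in bases from the start site (vertical line), for the 35 genes with a promoter sequence; where a gene had 2 promoters the first is drawn. Most CHR matches begin within 50 bases of the start site and most CCAAT matches before it, in a window of 250 bases before and 50 after it.

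The cyclins, Cdk1 and its activators were high in effector cells. All 6 measured genes of this group were higher in effector than in naive adults, with a median of 3.13, and 5 were higher in neonates. Over all genes tested 16.6% were higher in effector adults and 4.5% in neonates, with medians of -0.06 and 0.04. These values stand beside the role groups that follow as well. Ccnb2, a B-type cyclin, ranged from 4.78 to 5.58 around a median of 5.29 in naive adults, read 8.32, 7.87 and 8.47 in neonates, and ranged from 9.37 to 10.30 around 9.80 in effector adults. The 3 conditions did not overlap. The effector difference was 4.57 ± 0.17 (SE, n = 6 effector and 6 naive arrays), or 23.7-fold, and the neonatal difference 2.97 ± 0.21 (n = 3 and 6; limma adjusted p = 1.09e-10 and 6.74e-07). Cdk1, the kinase that drives entry into mitosis, lay between 3.84 and 5.05 (median 4.44) in naive adults, at 7.46, 7.29 and 7.69 in neonates and between 8.02 and 9.02 (median 8.65) in effector adults. Again no array of a condition reached the next. Cdk1 rose by 4.12 ± 0.18 in effector adults and by 3.00 ± 0.22 in neonates. Ccna2, cyclin A2, rose by 3.91 ± 0.33 and 2.81 ± 0.41, and Foxm1, a transcription factor of late cell cycle genes, by 2.35 ± 0.15 and 1.71 ± 0.18.

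The phosphatases that activate Cdk1 had smaller differences. Cdc25c rose by 1.81 ± 0.23 in effector adults and 1.17 ± 0.28 in neonates (limma adjusted p = 3.89e-05 and 0.0209). Without neonatal array 3 the neonatal difference of Cdc25c was 0.71 and no longer passed. Cdc25b, which also acts early in G2, lay between 4.39 and 5.60 (median 4.96) in naive adults and between 5.61 and 6.23 (median 5.89) in effector adults, and read 5.68, 4.85 and 5.92 in neonates. Effector and naive arrays were thus separate by a narrow margin, while neonates overlapped both. The difference was 0.93 ± 0.19 in effector adults and 0.48 ± 0.23 in neonates, where it did not pass (limma adjusted p = 0.00186 and 0.232). Without neonatal array 2 the latter was 0.79 and passed.

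**Figure D3:**
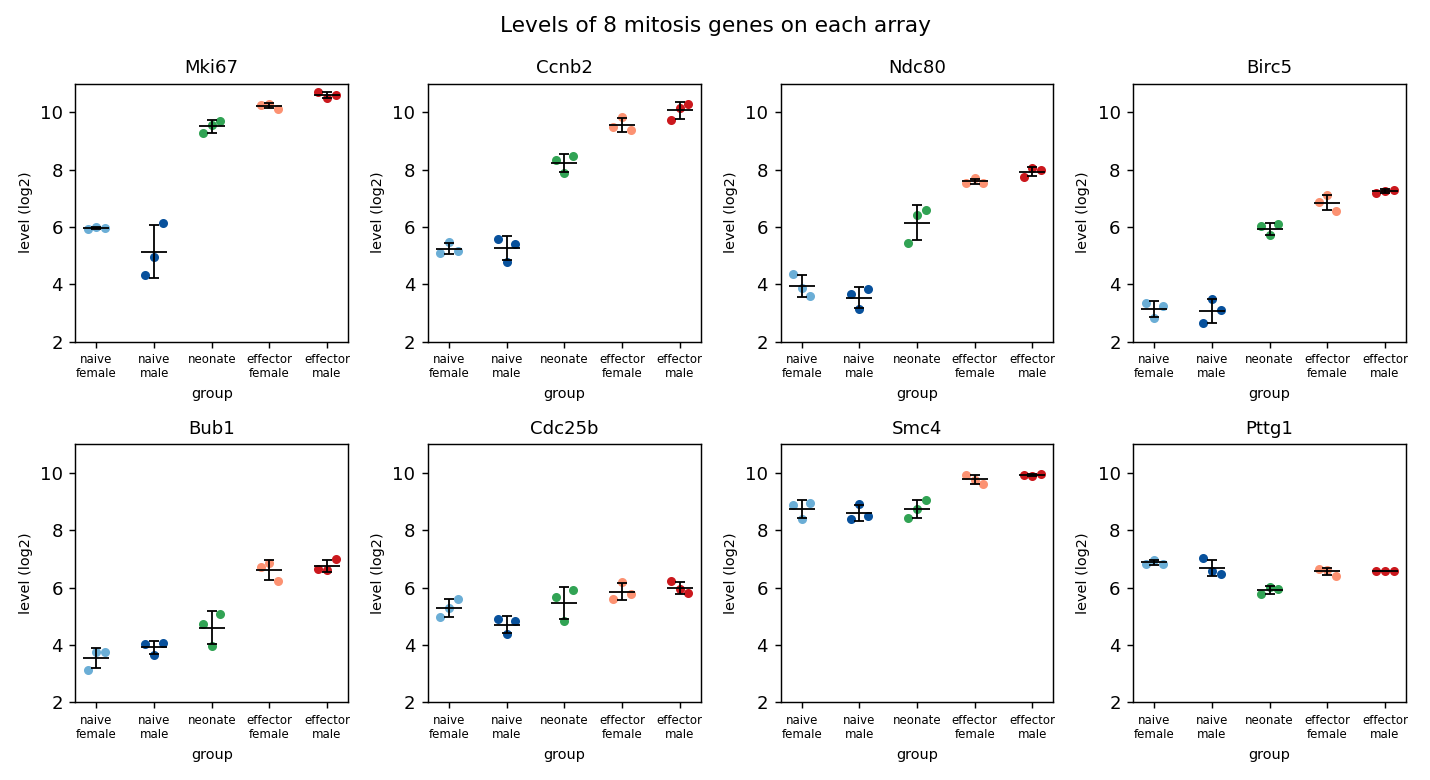
Log2 level of 8 genes on each array (points, 3 per group) with the group mean and SD (bars) in naive females, naive males, neonates, effector females and effector males. Mki67, Ccnb2, Ndc80 and Birc5 step up from naive to neonatal to effector arrays, Bub1 and Smc4 rise mainly in effector arrays, Cdc25b shifts little, and Pttg1 is lowest in neonates.

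All 4 of the other mitotic kinases, Plk1, Aurka, Melk and Nek2, were higher in effector adults, with a median of 2.29, and 3 were higher in neonates. Plk1, a kinase of centrosome maturation and mitotic exit, ranged from 5.14 to 6.64 (median 5.55) in naive adults, read 7.13, 7.21 and 7.97 in neonates and ranged from 8.30 to 9.04 (median 8.60) in effector adults. The conditions did not overlap, and Plk1 rose by 2.87 ± 0.21 in effector adults and 1.68 ± 0.25 in neonates. Nek2, a centrosome kinase, was the most scattered gene of the set in effector cells, where it spanned 5.21 to 7.16 (median 6.40), against 4.50 to 5.23 (median 4.86) in naive adults and 5.76, 5.37 and 6.37 in neonates. Its lowest effector array lay among the naive values. Nek2 rose by 1.42 ± 0.30 in effector adults, and its neonatal difference of 0.93 ± 0.36 did not pass (limma adjusted p = 0.00238 and 0.138). Aurka, the spindle pole kinase, rose by 2.27 ± 0.20 in effector adults. Its neonatal difference of 0.86 ± 0.25 passed narrowly (limma adjusted p = 0.0474) and was lost under 15 of 24 alternatives, among them leaving out any 1 naive array. Melk rose by 2.30 ± 0.17 and 1.37 ± 0.21.

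The spindle checkpoint genes Bub1, Bub1b, Mad2l1 and Ttk all rose in effector adults, by 2.53 to 2.95, and in neonates, by 0.86 to 2.00. Bub1, a checkpoint kinase at the kinetochore, lay between 3.15 and 4.09 (median 3.76) in naive adults, at 4.75, 3.96 and 5.08 in neonates and between 6.22 and 6.99 (median 6.70) in effector adults. Neonatal array 2 lay within the naive range, and all neonatal arrays far below the effector range. Bub1 rose by 2.95 ± 0.19 in effector adults. The neonatal difference of 0.86 ± 0.24 (limma adjusted p = 0.0406) was lost under 12 of 24 alternatives, falling to 0.62 without neonatal array 3. The neonatal level was lower than the effector level by -2.09 ± 0.24, the largest such gap of the 43 genes (limma adjusted p = 5.46e-05). Mad2l1, which inhibits Cdc20 until kinetochores are attached, was high in both conditions. It ranged from 5.87 to 7.34 (median 6.52) in naive adults, read 8.33, 8.38 and 8.79 in neonates and ranged from 8.60 to 9.41 (median 9.04) in effector adults. Neonatal and effector arrays overlapped, and Mad2l1 was higher than in naive adults by 2.00 ± 0.24 in neonates and 2.53 ± 0.20 in effector adults. The difference between neonatal and effector cells, -0.54 ± 0.24, did not pass (limma adjusted p = 0.139).

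The centromere and kinetochore genes moved together in every comparison of conditions. All 8 rose in effector adults (median 2.84) and in neonates (median 1.77), and all 8 were lower in neonates than in effector adults. The last call was lost for Cenpf under 8 and for Cenpa under 6 of 24 alternatives, which included leaving out neonatal array 1 or 2, effector female array 2 or effector male array 3. Ndc80, which binds microtubules, spanned 3.13 to 4.35 (median 3.74) in naive adults, 5.46, 6.41 and 6.60 in neonates and 7.53 to 8.04 (median 7.73) in effector adults. The 3 conditions were separate. It rose by 4.03 ± 0.20 in effector adults, or 16.3-fold, and by 2.42 ± 0.24 in neonates. Its partners in the Ndc80 complex rose less: Nuf2 by 2.99 ± 0.13 in effector adults and 2.08 ± 0.16 in neonates, Spc24 by 2.55 ± 0.18 and 1.11 ± 0.22, and Spc25 by 2.08 ± 0.21 and 0.95 ± 0.25. Whether these subunits differ from each other was not tested, while the naive levels of Ndc80, Nuf2 and Spc25 were no higher than the background signal. Spc25 spanned 4.08 to 5.36 (median 4.86) in naive adults, read 5.45, 5.86 and 5.86 in neonates and spanned 6.49 to 7.19 (median 6.87) in effector adults. Its neonatal arrays cleared the naive range only narrowly, and its neonatal call was lost under 7 of 24 alternatives. Cenpe, the kinetochore motor, rose by 3.34 ± 0.12 and 1.83 ± 0.15, and Ska1, which couples kinetochores to shrinking microtubules, by 3.31 ± 0.14 and 1.71 ± 0.17. Cenpa, the histone variant that marks the centromere, rose by 2.68 ± 0.19 and 1.87 ± 0.23.

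The chromosomal passenger complex corrects faulty attachments and later directs cytokinesis, and its 3 measured genes rose in both conditions. Birc5, which encodes survivin, lay between 2.64 and 3.48 (median 3.17) in naive adults, at 6.02, 5.71 and 6.11 in neonates and between 6.57 and 7.30 (median 7.14) in effector adults. The gap between naive and neonatal arrays was wider than that between neonatal and effector arrays. Birc5 rose by 3.94 ± 0.16 in effector adults and 2.84 ± 0.19 in neonates. Cdca8, which encodes borealin, lay between 4.21 and 5.02 (median 4.81) in naive adults, at 6.29, 6.27 and 6.47 in neonates and between 6.82 and 7.52 (median 7.43) in effector adults, again without overlap, and rose by 2.61 ± 0.14 and 1.65 ± 0.17. The kinase gene Aurkb rose by 3.28 ± 0.16 and 1.99 ± 0.20.

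Genes of anaphase entry, protein degradation and cohesion held the 1 exception of the set. Of 6 genes 5 rose in effector adults, and in neonates 4 rose and 1 fell. Ube2c, the ubiquitin-conjugating enzyme of the anaphase-promoting complex, ranged from 3.41 to 4.20 (median 4.02) in naive adults, read 6.34, 5.90 and 7.05 in neonates and ranged from 6.96 to 7.69 (median 7.35) in effector adults. Neonatal array 3 reached into the effector range. Ube2c rose by 3.42 ± 0.20 in effector adults and 2.53 ± 0.24 in neonates, and Cdc20, the activator of the complex, by 3.09 ± 0.17 and 1.52 ± 0.20. Espl1, the separase that cuts cohesin, rose by 2.16 ± 0.12 and 1.57 ± 0.15. Pttg1, which encodes securin, the inhibitor of separase, did not rise. It lay between 6.48 and 7.02 (median 6.83) in naive adults, at 5.77, 6.04 and 5.94 in neonates and between 6.42 and 6.67 (median 6.60) in effector adults. Naive and effector arrays overlapped, and every neonatal array lay below every adult array. Its difference was -0.21 ± 0.12 in effector adults, which did not pass, and -0.87 ± 0.14 in neonates, or 0.546-fold, which did (limma adjusted p = 0.195 and 0.00174). The effector difference had a 95% interval of -0.46 to 0.04, which lay below the differences of the other 5 genes of the group. The feature is the only one with this symbol, and what other transcripts it may bind is not known from the sources used here. A further quantile normalization moved the effector difference to -0.39, which passed as a fall. Cdca5, which encodes sororin, a protector of cohesion, rose by 1.76 ± 0.22 in effector adults and differed by 0.57 ± 0.27 in neonates, which did not pass.

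**Figure D4:**
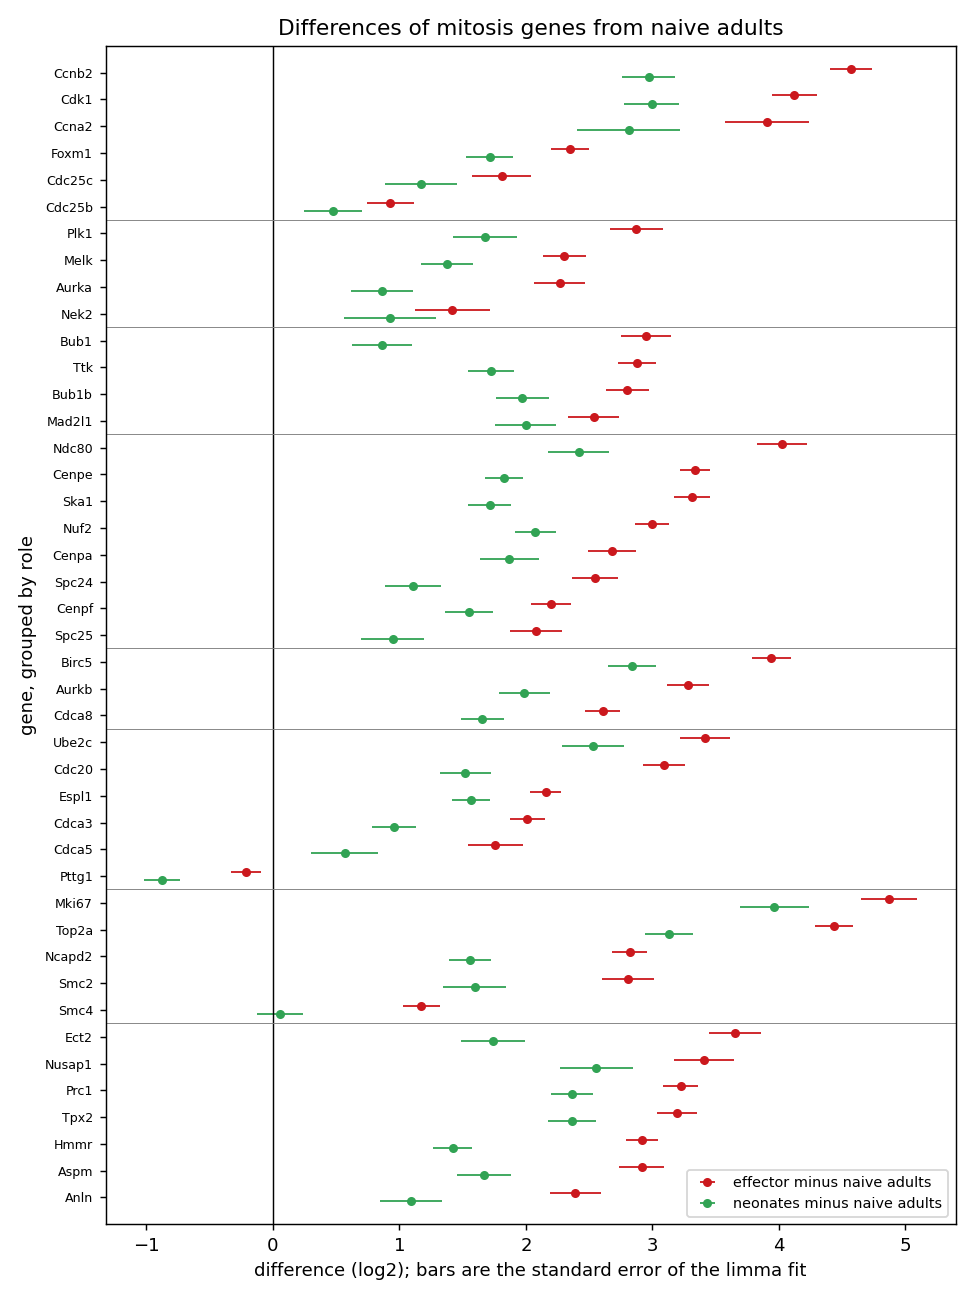
Log2 difference of effector adults (red) and neonates (green) from naive adults for each of the 43 genes, grouped by role, with the standard error of the limma fit. The red point lies to the right of the green point for every gene, and Pttg1 alone lies left of 0 in both. Both differences share the naive arrays.

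Genes of chromosome structure included the largest and some of the smallest differences. All 5 rose in effector adults and 4 in neonates. Mki67, whose protein coats mitotic chromosomes and is the common marker of cycling cells, lay between 4.32 and 6.13 (median 5.94) in naive adults, at 9.26, 9.56 and 9.71 in neonates and between 10.13 and 10.70 (median 10.40) in effector adults. The widest scatter was among naive males, at 4.32, 4.94 and 6.13, while naive females read 5.92, 6.01 and 5.97. Mki67 rose by 4.87 ± 0.22 in effector adults, or 29.2-fold, and by 3.96 ± 0.27 in neonates, or 15.6-fold, the largest difference of the set in each. Top2a, the topoisomerase that separates replicated chromosomes, lay between 3.77 and 4.55 (median 4.30) in naive adults, at 7.18, 7.02 and 7.83 in neonates and between 8.51 and 8.83 (median 8.65) in effector adults. Its conditions were separate, with differences of 4.43 ± 0.15 and 3.13 ± 0.19. Among condensin subunits Smc4 was already high in naive adults, at 8.41 to 8.97 (median 8.69), read 8.42, 8.74 and 9.06 in neonates and 9.63 to 9.96 (median 9.91) in effector adults. Neonatal arrays spread over the naive range, and effector arrays stood above both. Smc4 rose by 1.17 ± 0.15 in effector adults, and its neonatal difference of 0.06 ± 0.18 (95% interval -0.32 to 0.44) did not pass and changed sign under 3 alternatives. Its partner Smc2 rose by 2.81 ± 0.20 and 1.60 ± 0.25, and the condensin I subunit Ncapd2 by 2.82 ± 0.14 and 1.56 ± 0.17.

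All 7 genes of the spindle and cytokinesis rose in effector adults (median 3.19) and in neonates (median 1.74). Ect2, which activates RhoA to contract the cleavage furrow, lay between 4.06 and 4.99 (median 4.53) in naive adults, at 5.97, 6.27 and 6.59 in neonates and between 7.70 and 8.77 (median 8.20) in effector adults. It rose by 3.65 ± 0.21 in effector adults and 1.74 ± 0.25 in neonates, without overlap between conditions. Anln, which encodes the furrow scaffold anillin, lay between 3.63 and 4.16 (median 3.82) in naive adults, at 4.54, 4.72 and 5.56 in neonates and between 5.67 and 6.73 (median 6.31) in effector adults. Neonatal array 3 stood well above the other 2. Anln rose by 2.39 ± 0.20 and 1.09 ± 0.25, and without neonatal array 3 the latter was 0.78 and no longer passed. Prc1, which bundles midzone microtubules, rose by 3.22 ± 0.14 and 2.36 ± 0.17, and the spindle assembly factor Tpx2 by 3.19 ± 0.16 and 2.36 ± 0.19.

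Neonatal cells were also compared with effector cells directly. All 43 genes had lower means in neonates, against 42.7% of all genes tested. Of the 43 genes 37 passed the test, against 10.2% of all genes tested that were lower (limma adjusted p under 0.05). The median difference was -1.12, against 0.08 over all genes tested. For 36 genes every neonatal array lay below every effector array, as for 12% of all genes tested. For 31 genes naive, neonatal and effector arrays were 3 separate ranges in that order, a count not made over all genes tested. The 6 genes that did not pass were Ccna2, Nusap1, Cdc25b, Cdc25c, Nek2 and Mad2l1, with differences from -1.10 (Ccna2) to -0.45 (Cdc25b). The gap was widest for Bub1, for Ect2 at -1.91 ± 0.25 and for Ndc80 at -1.61 ± 0.24. It was narrowest among passing genes for Espl1 at -0.59 ± 0.15, Foxm1 at -0.63 ± 0.18 and Cenpf at -0.65 ± 0.19. Mki67 passed at -0.90 ± 0.27 (limma adjusted p = 0.0330) and lost the call under 8 of 24 alternatives, as did Cenpf under 8 and Foxm1 under 7. Markers of other cell types moved in this comparison too: of 59 markers 14 were higher and 0 lower in neonates, or 23.7%, against 7.02% of all genes tested that were higher. Fibroblast markers were among them, with 4 of 6 higher and a mean level of 4.32 to 4.48 on neonatal and 3.78 to 3.93 on effector arrays. Both ranges lay within background signal, since 95% of sensory receptor genes lay at or below 4.89 in neonates and 4.64 in effector adults. These receptor genes had a median level of 3.03 in neonates and 2.63 in effector adults, so background signal was itself higher in neonates. The median difference of the 59 markers was 0.34. The part of the 59 markers in the result was not tested. The count fell to 29 after a further quantile normalization, and leaving out 1 array gave 31 to 39.

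The 3 neonatal arrays were not alike. Array 3 was the highest of the 3 for 36 of the 43 genes, against 35% of all genes tested, and its mean over the set was 6.79, against 6.29 and 6.30. Without it 34 genes passed against naive adults in place of 39. Of 59 markers of other cell types 4 were higher and 2 lower than in naive adults (6.78% and 3.39%), near the 4.5% and 2.68% of all genes tested. The 4 were the mast cell genes Cpa3 (2.43 ± 0.20) and Tpsb2 (0.98 ± 0.19), Cd3e (1.21 ± 0.25) and the alveolar gene Sftpc (1.98 ± 0.46), and the lower pair Lat and Ighm. Cpa3 averaged 10.43 in neonates, 8.01 in naive and 7.10 in effector adults. The mean level over 6 mast cell and basophil markers was 5.54, 5.64 and 4.81 on neonatal arrays 1, 2 and 3. Cpa3 itself hardly varied between these arrays (SD 0.047), while Mcpt8, which was not called, had an SD of 1.5. The mean over the 6 markers was 4.25 to 4.46 on naive and 4.09 to 4.83 on effector arrays. That over 7 T cell markers was 6.35 to 6.60 on neonatal, 6.23 to 6.47 on naive and 5.69 to 5.99 on effector arrays. Their part in the difference of the mitotic genes was not tested.

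Both sexes showed the rise. In females 40 of the 43 genes were higher in effector than in naive cells, against 6.79% of all genes tested, with a median of 2.48, and in males 42, against 12.7%, with a median of 3.11 (limma adjusted p under 0.05). Naive levels lay within background signal for 33 of the 43 genes in females and 40 in males, so the differences of either sex can understate the change. In females Cdc25b (0.56 ± 0.27), Nek2 (1.35 ± 0.42) and Pttg1 did not pass. The male call of Nek2 was lost without naive male array 3, effector male array 1 or effector male array 3. For 39 of the 43 genes the female difference was the lower on the signed scale, against 54.6% of all genes tested, the exceptions being Bub1, Nuf2, Spc25 and Cdca5. The test of the difference between the sexes called none of them, nor any other (0% of all genes tested, limma). At an unadjusted p under 0.05 were 11 of the 43 (25.6%), against 4.75% of all genes tested. The difference was largest for Ccna2 at -1.50 ± 0.66 (95% interval -2.92 to -0.09), followed by Cdc20 at -1.23 ± 0.33 and Mki67 at -1.21 ± 0.44 (limma adjusted p = 0.997, 0.823 and 0.997).

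The sexes were also compared within each condition. Among effector arrays 42 of the 43 genes had a lower mean in females, against 47.8% of all genes tested, with a median of -0.35, against 0.01 over all genes tested, and for 23 genes the female arrays all lay below the male arrays, against 4.51% of all genes tested. None passed the test of single genes (limma), against 0.0225% of all genes tested. At an unadjusted p under 0.05 were 8 of the 43 (18.6%), against 1.83% of all genes tested. The differences were small, from -0.62 for Nuf2 (95% interval -1.03 to -0.21) to 0.12 for Cdca5. Genes of 1 set rise and fall together on an array, so that the 42 are not independent counts. Among naive arrays 27 of the 43 genes had a higher and 16 a lower mean in females, with a median of 0.14. That is near all genes tested, of which 57.8% had a higher mean in females, with a median of 0.05. Again none passed (limma), against 0.135% of all genes tested. At an unadjusted p under 0.05 were 9 of the 43 (20.9%), a larger share than the 9.05% of all genes tested. The 30 calls over all genes behind the share of 0.135% became 110 without naive male array 3, 14 without naive female array 3 and 6 with only the arrays compared. Mki67 differed there by 0.83 ± 0.31, and without naive male array 3 by 1.33, which passed. Its naive male mean of 5.13 lay within background signal, where 95% of sensory receptor genes lay at or below 5.76.

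**Figure D5:**
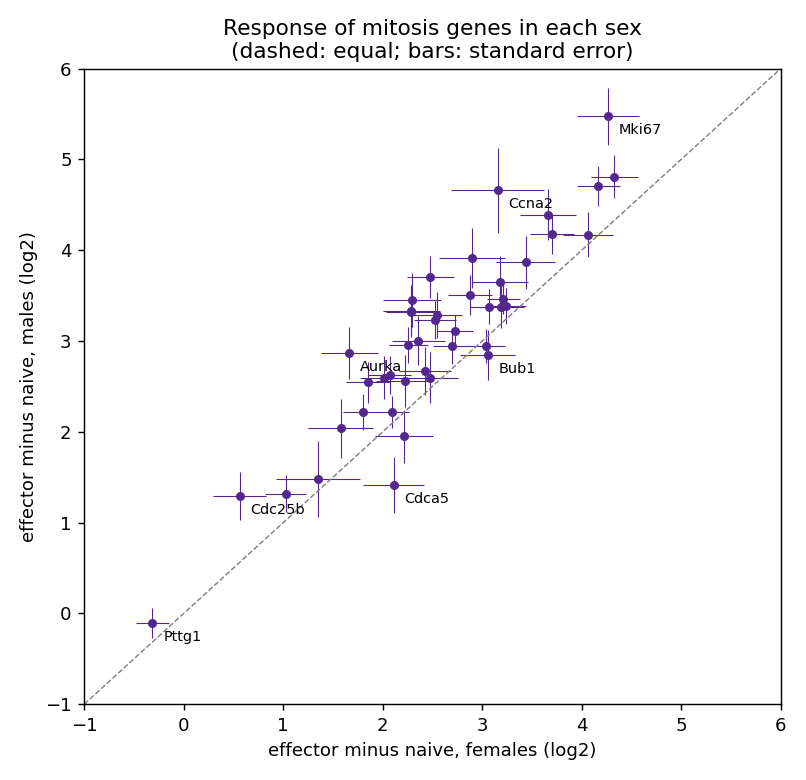
Effector minus naive log2 difference of each of the 43 genes in females (horizontal) and males (vertical), with standard errors of the limma fit; the dashed line marks equal differences. Most points lie above the line, and the test of the difference called none of the 43.

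Within groups the genes were also ranked over the replicate arrays. Among effector females array 3 was the lowest for 28 of the 43 genes, against 29.3% of all genes tested, and array 2 the highest for 24, against 33.2%. Among effector males array 3 was the highest for 23, against 33.6% of all genes tested, and array 2 the lowest for 20, against 33.1%. Among naive arrays the highest such count was 19 of the 43 genes, for which naive male array 1 was the highest, against 35.4% of all genes tested. The SD of a gene within a group had a median of 0.18 in effector females, 0.16 in effector males, 0.28 in naive females, 0.29 in naive males and 0.32 in neonates, and over all genes tested 0.17, 0.18, 0.22, 0.27 and 0.31.

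Other genes of the same machinery were read from 6 lists that hold none of the 43, also chosen with earlier results of these data known. Of 88 tested genes 77 were higher and 1 lower in effector than in naive adults, against 16.6% and 10.1% of all genes tested, and in neonates 35 were higher and 1 lower, against 4.5% and 2.68% (limma adjusted p under 0.05), with medians of 1.26 and 0.56. Other centromere and kinetochore genes rose for 23 of 25 members in effector adults and 11 in neonates, led by Cenpk (4.25 ± 0.19 and 2.01 ± 0.23) and Ska3 (3.34 ± 0.22 and 1.69 ± 0.27). Of 7 further checkpoint and passenger genes 7 rose in effector adults and 3 in neonates, among them the checkpoint ATPase gene Trip13 at 2.89 ± 0.20 and 0.91 ± 0.25, and Sgo1, whose product shields centromeric cohesin, at 2.43 ± 0.16 and 1.08 ± 0.20. Of 17 further spindle and cytokinesis genes 17 and 13 rose, led by Shcbp1 (3.81 ± 0.24 and 2.32 ± 0.30) and the abscission gene Cep55 (3.53 ± 0.22 and 1.21 ± 0.27). Of 13 genes of mitotic entry and exit 12 and 4 rose, with Mastl, the Greatwall kinase, at 2.63 ± 0.18 and 1.39 ± 0.22.

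Condensin and cohesin stood in 1 list. Of 12 members 9 rose in effector adults and 4 in neonates, with the condensin subunits Ncaph (3.24 ± 0.16 and 2.09 ± 0.20) and Ncapg2 (3.07 ± 0.16 and 1.55 ± 0.20) at the top and a list median of 0.73 in effector adults. Core subunits of the anaphase-promoting complex, which Cdc20 and Ube2c serve, had small differences. Of 14 subunits 9 rose and 1 fell in effector adults, with a median of 0.54, against 16.6% higher and 10.1% lower of all genes tested. In neonates 0 rose and 1 fell (limma adjusted p under 0.05), near the 4.5% and 2.68% of all genes tested. Anapc15 rose by 1.59 ± 0.20 and Cdc27 by 1.05 ± 0.13 in effector adults, and Anapc13 fell by 0.43 ± 0.13.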

How the data were processed

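RNA of lung ILC2s was hybridised to 15 arrays in 5 groups of 3. The deposited values are log2 levels, made with Affymetrix Expression Console and RMA per the submitters' processing notes. The sources used here name neither versions nor filters. With 3 arrays a group, the array number limits precision.

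Of 41345 features 23521 carried exactly 1 gene symbol. Those of several symbols (1814) or none (16010) were left out, and of several features of a gene the one with the highest mean was kept, which gave 22180 genes. No filter on dim features was applied, because one can admit a gene through the group in which it is high. Using limma 3.58.1 under R 4.3.3, group means were estimated from all 15 arrays (10 residual and 5.04 prior degrees of freedom). 8 two-sided contrasts were tested, adults with the sexes weighted equally, with Benjamini-Hochberg adjustment over all genes and calls at 0.05. Errors given as ± are moderated standard errors. The pipeline was tested on simulated data.

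The genes and lists were chosen with earlier results of these data known. Given array by array were, in each role group, the genes with the largest and smallest effector difference, those with the largest and smallest neonatal difference, and Mki67, Cdk1 and Top2a (Ccnb1 had no feature); of each further list, the 2 largest rises and the largest fall. Figures were drawn with matplotlib 3.10.9. Alternatives were dim filters, scalings, the mean of features, other priors, array weights, a replicate block, fewer arrays and leaving out each array.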

Additional observations from a re-analysis of the deposited data

Results flagged for a closer look

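Features that name a gene of the set together with another gene were not used, since either gene may give their signal. On 4 such features every effector adult array lay above every naive adult array. The feature of Ncapg and Lcorl was higher by 3.26 in effector adults and by 2.01 in neonates, and that of Oip5 and Nusap1 by 3.16 in effector adults and by 0.75 in neonates. Of 2 features of Top2a and Taf1d, 1 was higher by 1.12 in effector adults and by 0.43 in neonates, and the other by 1.31 in effector adults and by 0.39 in neonates. These differences were not tested.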

How the results depend on the processing

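Each count of called genes and each of 36 differences of the genes given array by array was recomputed under 24 alternatives. All 42 genes called in effector against naive adults kept their call under every alternative, as did 33 of 39 in neonates against naive adults and 29 of 37 in neonates against effector adults. Of 192 recomputed counts 191 stayed within 1.5 times. The exception was females against males in naive cells, where leaving out 1 array gave 0 to 1 calls. Of 864 recomputed differences 838 kept their direction and side of the threshold, 21 lost the call and 2 gained it. The neonatal difference of Smc4 changed sign in 3, at -0.024 after a further quantile normalization, -0.03 without naive female array 2 and -0.10 without neonatal array 3, in a range of -0.10 to 0.22 over single arrays left out; the cause was not tested.

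Over all genes, centring each array on its median moved the share of higher calls from 62.3% to 80.3% in effector against naive adults and from 40.8% to 23.6% in neonates against effector adults, and the median difference from -0.06 to 0.08 and from 0.08 to -0.03, while the median of the 43 genes was 3.01 in the first. Only the arrays compared gave 599 calls over all genes in neonates against naive adults, and array weights 631, in place of 1592. Between neonates and effector adults array weights gave 2107, a further quantile normalization 2447 and leaving out neonatal array 2 2165, in place of 3819. Within females array weights gave 3695, and leaving out effector female array 2 or 3 gave 1168 or 1254, in place of 2108. Within males leaving out effector male array 3 gave 2467, in place of 4086.

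Same-numbered arrays of different groups did not deviate together, with a median correlation of -0.000311 over 30 pairs against 0.0037 over 60 other pairs. Pairing by number was thus not seen, but 3 arrays a group cannot exclude it. With the replicate block 42, 38 and 37 genes were called in effector against naive adults, neonates against naive adults and neonates against effector adults. The block called 40 in females, 42 in males and 0 in the other 3 comparisons.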
